A study of Mus musculus with 30 samples.

Results

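The livers of male mice gavaged with inulin were compared with those of male mice gavaged with water in the same experiment. The 6 arrays are those whose titles give a male mouse and either inulin or the control run alongside inulin, 3 mice in each group, out of 30 arrays in the series. Each mouse was 8 weeks old at the start and was force-fed 500 µl of solution a day for 30 days on standard chow. The inulin mice received 6.9 mg of inulin a day, a dose set to the inulin content of the G35 chicory root used elsewhere in the series, and the control 2 mice received water. The strain is not given in the labels, and no genetic alteration is named. A block of the left liver lobe was used from each animal, so each value is 1 liver on 1 single-colour Agilent array. The arrays set beside them are the females of the same experiment (3 inulin, 3 control 2) and the males of an earlier one (3 given a G35 chicory root decoction, 3 control 1 given water). The shared fit and the ranges of the other 24 arrays also take in the remaining groups of the earlier experiment. These are males given G12 chicory and females given G12, G35 or water (control 1), 3 mice each. The G35 and G12 doses were 10 mg per mouse a day. As the experiments ran at different times, each treatment difference is taken only from its own water group. Ranges and means that span the experiments are given as levels only.

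Inulin is a chain of fructose units that mammalian enzymes do not digest. Bacteria of the large intestine ferment it to acetate, propionate and butyrate, which reach the liver through the portal vein. There propionate can feed glucose production, acetate can feed fatty acid and sterol synthesis, and bile acids made from cholesterol return to the gut. The genes below are ordered by these roles: sugar and energy regulators, lipid storage, sterols and bile acids, the clock, and then the inflammatory proteins of the liver.

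The arrays' median intensities ran from 141 (inulin replicate 2) to 511 (inulin replicate 3). Control 2 arrays stood at 432, 304 and 206 and inulin arrays at 215, 141 and 511, for replicates 1, 2 and 3. Within slides the inulin array was the brighter on slide 7 and the dimmer on slides 8 and 10. The 8996 genes with a named probe were put on the log2 scale after normexp background correction and quantile normalization. Values are levels of 1 probe and are compared only between arrays. Each of slides 7, 8 and 10 carried 1 control 2 and 1 inulin male, which gives a difference within each slide: control replicate 1 with inulin replicate 3 on slide 7, control replicate 2 with inulin replicate 1 on slide 8, and control replicate 3 with inulin replicate 2 on slide 10. All 3 control males lay in block 4 of their slide and all 3 inulin males in block 2, so position on the slide and gavage cannot be told apart. Of 13 hepatocyte markers 10 were measured, at mean log2 values of 13.89 to 14.30 on the 3 inulin arrays and 13.99 to 14.17 on the control arrays. All arrays are of liver, so these levels are no check of the tissue. Of 12 genes known to be higher in male liver and 13 higher in female liver, 8 and 6 separated the 6 males from the 6 females of this experiment. The share of all genes that did so was not counted, so the sex rests on the labels.

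Large differences were not spread evenly over the array surface. With 85 features per line, a length inferred from the correlation between neighbouring lines, 169 features (1.09%) differed by more than 0.7 log2 between the groups, 127 of them lower with inulin. A cluster near line 250 at the right edge was low on the inulin arrays of slides 8 and 10, and the last lines of the array held higher and lower features side by side. Ndufs8, a subunit of respiratory complex I inside the mask described next, read 9.57, 9.33 and 9.33 on the control arrays of slides 7, 8 and 10 against 9.28, 7.29 and 7.20 on the inulin arrays, while the other 24 arrays stayed between 9.24 and 10.08. Wdr13, a WD-repeat protein gene outside the mask, singled out after its values were seen, lay at 6.00 and 5.71 on the control arrays of slides 8 and 10, at 8.47 on that of slide 7, and at 8.22 to 8.52 on the inulin arrays. Every one of the other 24 arrays read Wdr13 between 8.01 and 8.70. A neighbourhood mask, chosen after seeing the data, marks features with at least 2 others within 3 lines and 3 columns that differed the same way by over 0.7 log2. It holds 270 features, which are the brightest for 166 genes, and each gene below that lies in it is named as such.

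**Figure D1:**
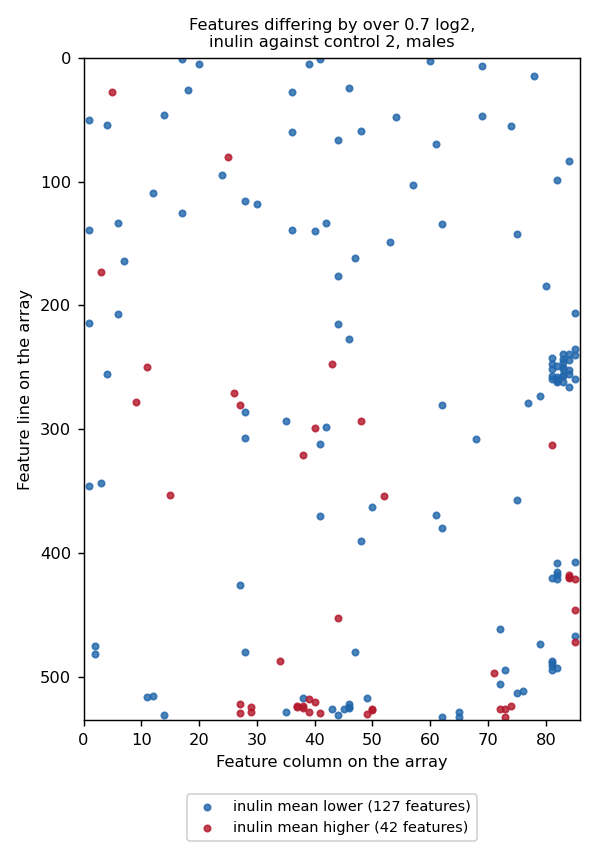
Features whose male inulin and control 2 means differed by more than 0.7 log2, placed by column (horizontal) and line (vertical) on the array, with the 127 lower features in blue and the 42 higher in red. Lower features crowd at the right edge near line 250, while the higher ones are more scattered, some of them along the bottom lines among lower ones.

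No gene passed an adjusted p of 0.05 for inulin against control 2 in males: 0 of 8996 (0%) in limma's moderated test over all 30 arrays, with a lowest Benjamini-Hochberg adjusted p of 0.518 and 186 genes at an unadjusted p under 0.05. With slide as a fixed block it was again 0 (0%), with a lowest adjusted p of 0.0531 and 563 genes at an unadjusted p under 0.05. With slide as a random block 1 gene was called (0.0111%), Ndufs8, lower with inulin (adjusted p = 0.0324), which lies in the mask. Leaving out control replicate 1 gave 15 called genes, of which 8 lay in the mask, leaving out inulin replicate 3 gave 15, of which 9 did, and leaving out both, which is slide 7, gave 21, of which 11 did. The group means were higher with inulin for 4691 genes (52.1%), and the median difference over all genes was 0.01 log2. In 427 genes (4.75%) all 3 inulin values lay above all 3 control values, and in 287 (3.19%) all lay below. The split moved with the scaling: 75th percentile scaling, which shifts the median of all genes to 0.11, gave 420 above and 158 below with 71.9% of means higher, median centring gave 292 and 265, and cyclic loess gave 345 and 314. The genes described next are therefore given as levels and differences without a call. They are the 12 higher and 12 lower non-overlapping genes with the lowest p, the 2 members of each gene list with the lowest p, and further members chosen after their values were seen.

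Osgin1 had the largest difference among the 12 higher genes. It belongs to the oxidative stress response and is known as an NRF2 target. Its log2 values were 12.16, 10.67 and 10.72 on the control arrays of slides 7, 8 and 10 and 12.47, 12.82 and 12.23 on the inulin arrays, a difference of 1.32 ± 0.34 (SE, n = 3 and 3). On slides 7 and 8 the inulin values lay above the range of the other 24 arrays (10.24 to 12.30), and the gap was 0.31 on slide 7 against 2.15 on slide 8. Sgk2, a kinase related to the glucocorticoid-induced kinase SGK1, read 11.08, 10.71 and 11.12 in controls and 11.73, 11.94 and 11.82 with inulin (0.86 ± 0.24). Here the inulin values were tightly grouped and the distance held on each slide, from 0.65 to 1.23. The remaining genes of this set differed by 0.26 to 0.59: Rhpn2, Pla2g6 (a calcium-independent phospholipase A2), Ifngr1 (a chain of the interferon gamma receptor, 7.44 to 7.50 against 7.80 to 7.97), Tmem131l, F3 (tissue factor, the starter of coagulation, 6.71 to 6.87 against 7.16 to 7.25), Cfap410, Ccdc71l and 2900026A02Rik, beside Plin2 and Nr1d1 below.

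Of the 12 lower genes, 6 lay in the mask (Ndufs8, Psmb8, Rnf220, Dph1, Traf2 and Eif3f), each low on the inulin arrays of slides 8 and 10. For Psmb8, Rnf220, Traf2 and Eif3f the inulin array of slide 7 stood close to its control (8.46 against 8.54, 8.74 against 8.83, 8.27 against 8.36 and 10.14 against 10.16). The second probe of Rnf220, outside the mask, differed by 0.15 where the one in the mask differed by -1.37. The other 6 lay outside the mask: Noct, Pfkfb3, Cnpy2, Nmi, Tmc7 and Clec1b. Cnpy2, which codes for an endoplasmic reticulum protein, read 10.89, 10.96 and 10.92 in controls and 10.71, 10.07 and 9.89 with inulin (-0.70 ± 0.18). Its slide 7 pair was the closest, with a difference of -0.18. Nmi, an interferon-inducible partner of STAT proteins, differed by -0.56 ± 0.16, and Clec1b, the podoplanin receptor CLEC-2, by -0.40 ± 0.13, though 1 of its 2 other probes differed by 0.10.

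**Figure D2:**
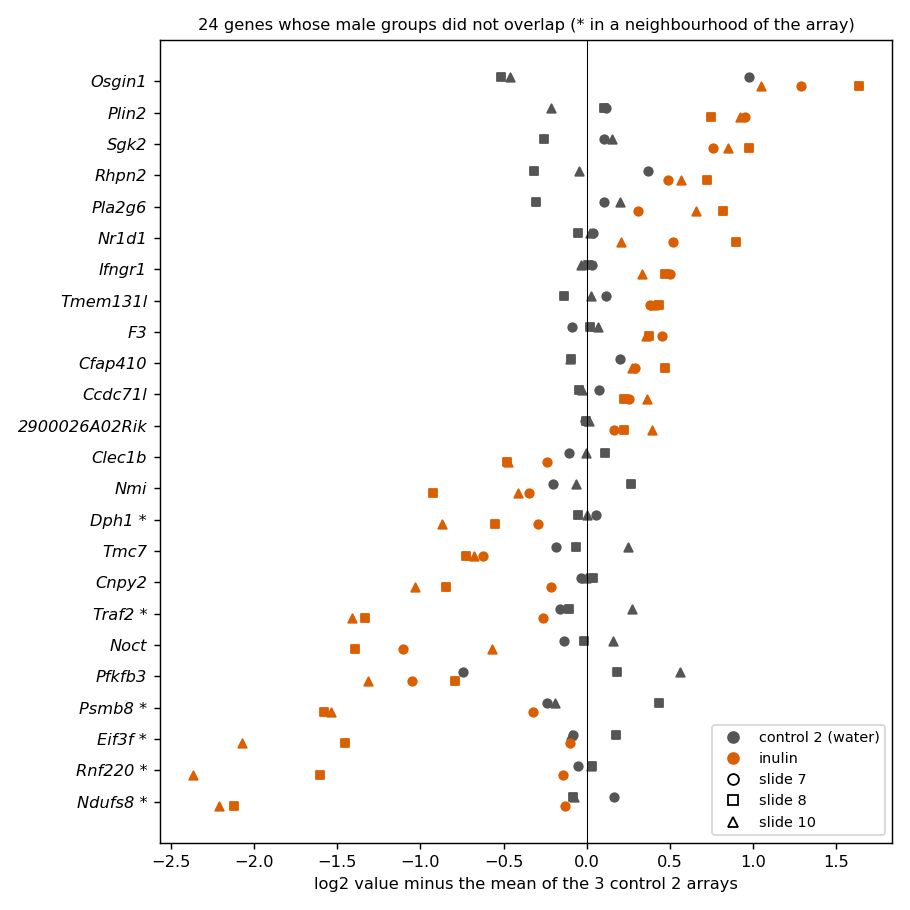
Log2 value minus the mean of the 3 control 2 arrays for the 12 higher and 12 lower genes (rows), with control 2 arrays in grey, inulin arrays in orange and the slide by symbol. Starred genes lie in the mask, and in them the slide 7 inulin point sits near the controls while those of slides 8 and 10 lie far to the left, except Dph1, which is spread between.

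Among regulators of sugar use, Pfkfb3 had the lowest p. It makes and breaks fructose 2,6-bisphosphate, the signal that speeds glycolysis. Pfkfb3 read 7.64, 8.57 and 8.95 in controls and 7.34, 7.59 and 7.07 with inulin (-1.05 ± 0.26). The groups did not overlap, but control replicate 1 lay just above the highest inulin value. The fructose and sugar list held 16 measured genes, of which 0 were called, 10 were higher and 6 lower, with a median of 0.08. Aldoa, a glycolytic aldolase, and Gckr, the regulator of glucokinase, did not overlap and were 0.32 ± 0.25 and 0.30 ± 0.24 higher.

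In the gluconeogenesis and glycogen list 13 of 18 measured genes were lower and 5 higher (median -0.11, 0 called), and without control replicate 1 the median was 0.01. Ppargc1a, the coactivator that drives gluconeogenic genes in fasting, read 8.06, 8.20 and 7.99 in controls and 7.80, 7.36 and 7.50 with inulin (-0.53 ± 0.27), with no overlap. Foxo1, the insulin-restrained activator of the same programme, differed by -0.55 ± 0.23, and its second probe by -0.37, with overlapping groups. Of the glycogen-targeting subunits of protein phosphatase 1, Ppp1r3b was lower without overlap (-0.45 ± 0.46) and Ppp1r3c higher without overlap (0.30 ± 0.22). The enzymes that themselves make glucose were not among the non-overlapping genes. In females the list stood the other way, at a median of 0.06 with 10 of 18 higher, and no gene was called for a difference of the response by sex.

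The list for short-chain fatty acid sensing and use gave 12 measured genes, 6 higher and 6 lower, with a median of 0.00 and none without overlap. It covers the enzymes that activate acetate and butyrate and turn propionate into succinyl-CoA. Pccb, a subunit of propionyl-CoA carboxylase, read 6.08, 6.22 and 6.81 in controls and 6.20, 6.59 and 7.20 with inulin (0.30 ± 0.24). Mcee, the next enzyme of that route, read 9.47, 9.09 and 9.24 and then 9.20, 8.75 and 8.97 (-0.29 ± 0.25). Acss2, which activates acetate in the cytosol, differed by 0.15 ± 0.18. In each of these the groups overlapped, though within slides Pccb was higher with inulin on all 3 and Mcee lower on all 3. Of the 12 genes 4 were higher on all 3 slides and 1 lower, against 17.1% and 14.6% of all genes.

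Plin2, the coat protein of hepatic lipid droplets, was among the clearest of the higher genes. Its values were 12.78, 12.77 and 12.45 in controls and 13.62, 13.41 and 13.59 with inulin (0.87 ± 0.25). The groups were well apart, and the slide differences were 0.84, 0.64 and 1.14. In the fatty acid synthesis and storage list as a whole 14 of 26 genes were higher and 12 lower (median 0.03). Lpin1, the phosphatidate phosphatase of triglyceride synthesis, read 8.24, 9.37 and 9.26 in controls and 8.10, 7.96 and 7.92 with inulin (-0.96 ± 0.40), without overlap. Control replicate 1 again lay next to the inulin values. Thrsp, a lipogenic regulator, was lower without overlap (-0.48 ± 0.44), while Fasn, the fatty acid synthase, and Fads1, a desaturase, were higher without overlap by 0.20 ± 0.19 and 0.22 ± 0.21. In females Plin2 differed by -0.25 ± 0.25.

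The list of fatty acid oxidation and PPAR-alpha targets was even (17 of 31 higher, median 0.02). Hadh, a beta-oxidation dehydrogenase, had its lowest p (-0.93 ± 0.36) but lies in the mask, and its groups overlapped. Cyp4a32 and Decr1 were higher without overlap by 0.28 ± 0.24 and 0.12 ± 0.24, and Pdk4, the kinase that restrains pyruvate oxidation, differed by 0.51 ± 0.34 with overlap. Lipoprotein and lipid uptake genes were likewise even (13 of 23 higher, median 0.04), with Mttp, which loads lipid onto apolipoprotein B, 0.22 ± 0.16 higher with overlap and Angptl8, an inhibitor of lipoprotein lipase that lies in the mask, 0.54 ± 0.38 higher with overlap.

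Genes of cholesterol synthesis and uptake had the highest list median. Of 19 measured, 17 were higher and 2 lower, against 52.1% higher among all genes, with a median of 0.26. The median was 0.24 on slide 7, 0.39 on slide 8 and 0.16 on slide 10. None was called and none reached an unadjusted p of 0.05. The groups did not overlap in 6 members, all higher (Hsd17b7, Hmgcs1, Cyp51, Fdft1, Sqle and Pmvk), where 4.75% of all genes were higher and 3.19% lower without overlap. Sqle, the squalene epoxidase, read 8.14, 7.61 and 8.36 in controls and 8.96, 8.94 and 8.62 with inulin (0.80 ± 0.56). Hmgcs1, which forms the HMG-CoA that the pathway's rate-limiting reductase uses, read 11.02, 10.19 and 10.70 and then 11.47, 11.19 and 11.12 (0.63 ± 0.38). The lowest values of both were on the control array of slide 8, and all inulin values exceeded all controls. Cyp51, the lanosterol demethylase, differed by 0.45 ± 0.28, Fdft1, the squalene synthase, by 0.39 ± 0.25, Hsd17b7 by 0.30 ± 0.18 and Pmvk, phosphomevalonate kinase, by 0.29 ± 0.28. Idi1, the isopentenyl diphosphate isomerase (0.57 ± 0.48), and Insig2, which holds the sterol sensor in the endoplasmic reticulum (0.47 ± 0.29), overlapped. With each of the 6 arrays left out in turn, 15 to 18 of the 19 stayed higher, with medians from 0.22 to 0.32. In females 14 of the 19 were higher, with a median of 0.10. Males given G35 were also higher than control 1 in Sqle (0.98 ± 0.56), Idi1 (0.69 ± 0.48) and Fdft1 (0.66 ± 0.25). The same held for Hmgcs1 (0.61 ± 0.38), Cyp51 (0.46 ± 0.28) and Pmvk (0.46 ± 0.28). The whole list was not counted for G35.

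**Figure D3:**
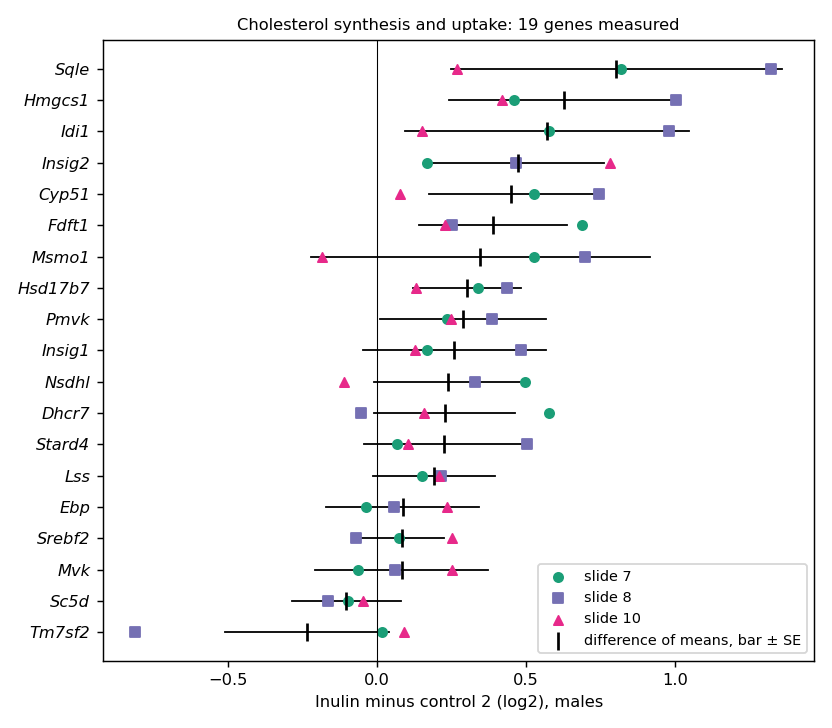
Inulin minus control 2 in males (log2) for the 19 measured genes of cholesterol synthesis and uptake, with the difference on each slide as a coloured symbol and the difference of means ± SE (n = 3 and 3) as a black tick and bar. Most points lie right of 0 on every slide, but the bars of most genes reach close to or past it.

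Sterol genes are known targets of SREBP-2, which binds sterol regulatory elements together with NF-Y at CCAAT boxes, so the promoters of 2 members are shown with these letters. RefSeq windows (GRCm38.p6, 250 bases before to 50 after a gene's start) were found for 16 of the 19 genes (not Fdft1, Sqle and Stard4), 21 windows in all. CCAAT, read on both strands, stood in 16 of the 21 windows (76.2%). The share was 37.1% in the 9421 windows of genes tested and 37.4% in all 32851. Counted by gene, it stood in at least 1 window of each of the 16 genes, against 3125 of 7341 genes tested. The letters TCACNCCAC, on both strands, stood in 1 of the 21 (Hmgcs1), against 1.24% of all windows. Both were searched with the results known, and a match is only a match of letters. The 250 bases before the start follow, with matches to either motif in capitals (ATTGG is CCAAT on the other strand), for Hmgcs1 (chr13:119690101-119690350, plus strand) and Cyp51 (chr5:4104698-4104947, minus strand).
Hmgcs1: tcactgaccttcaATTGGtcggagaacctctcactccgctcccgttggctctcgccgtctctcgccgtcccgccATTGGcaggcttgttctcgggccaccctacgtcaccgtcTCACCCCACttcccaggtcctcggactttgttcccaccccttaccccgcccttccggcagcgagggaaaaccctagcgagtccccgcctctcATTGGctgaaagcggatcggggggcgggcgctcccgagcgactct
Cyp51: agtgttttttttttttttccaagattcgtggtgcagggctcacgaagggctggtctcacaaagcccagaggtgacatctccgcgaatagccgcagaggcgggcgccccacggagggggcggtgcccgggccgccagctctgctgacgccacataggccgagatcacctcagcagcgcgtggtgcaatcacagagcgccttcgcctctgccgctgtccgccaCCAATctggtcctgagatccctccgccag

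Cyp7a1, the rate-limiting enzyme of bile acid synthesis from cholesterol, lay lower in the inulin males. It read 10.52, 10.38 and 11.44 in controls and 10.11, 9.53 and 9.18 with inulin (-1.17 ± 0.51, unadjusted p = 0.0319). The groups did not overlap, and the slide differences ran from -0.40 on slide 7 to -2.26 on slide 10. Control replicate 3 lay above the range of the other 24 arrays (7.61 to 11.01), while the other controls and the inulin values lay inside it. The bile acid list as a whole was even, with 10 of 23 genes higher and a median of -0.02. Abcg5, which exports sterols into bile, was also lower without overlap (-0.28 ± 0.22), while Abcb11, the bile salt export pump, was 0.49 ± 0.25 higher with overlap.

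Noct, known as nocturnin, is a rhythmic liver gene whose product removes a phosphate from NADP(H), and it had the lowest p of any gene with non-overlapping groups outside the mask. Its values were 10.55, 10.67 and 10.84 in controls and 9.58, 9.30 and 10.12 with inulin (-1.02 ± 0.24, unadjusted p = 0.000336, adjusted p = 0.756). The inulin values lay inside the range of the other 24 arrays (8.54 to 10.69), while control replicate 3 lay above it and the other controls near its top. Nr1d1, the clock repressor REV-ERB alpha, went the other way: 6.56, 6.46 and 6.54 in controls and 7.04, 7.42 and 6.72 with inulin (0.54 ± 0.18). Usp2, a rhythmic deubiquitinase, was lower without overlap (-0.55 ± 0.27). Over the clock list 7 of 19 genes were higher and 12 lower, with a median of -0.07 that turned to 0.04 without control replicate 1 and to 0.02 under 75th percentile scaling. The hour of sampling is not given in the labels, and its part in these values was not tested.

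Glucocorticoid-responsive and immediate early genes were mixed, 11 higher and 15 lower of 26 (median -0.16). The median was -0.07, -0.34 and -0.03 on slides 7, 8 and 10, control replicate 2 held the highest of the 6 values for 10 of the 26 (38.5% against 16.7% of all genes), and without that mouse the median was -0.08. Those lower without overlap were Klf2 (7.97, 8.18 and 8.06 against 7.48, 7.62 and 7.86, -0.42 ± 0.19), Fkbp5, a cochaperone induced by glucocorticoids (-0.42 ± 0.21), Klf4 (-0.22 ± 0.19) and Zfp36 (-0.29 ± 0.25). Egr1, a growth-factor-induced transcription factor, was higher without overlap (0.88 ± 0.45). Under 75th percentile scaling Klf4 stood at 0.03. Upp2, a uridine phosphorylase singled out after its values were seen, read 10.04, 10.95 and 10.28 in controls and 9.44, 9.10 and 9.44 with inulin (-1.10 ± 0.38), and its second probe differed by -0.94.

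The acute phase list, the proteins that the inflamed liver releases, stood lowest of all lists, with 21 of 29 genes lower and a median of -0.26. This rested on 1 control mouse. In control replicate 2, Saa1, a serum amyloid, stood at 15.08 against 8.91 and 10.60 in the other controls and 10.78, 9.73 and 10.49 with inulin. Lcn2, an iron-binding acute phase protein, stood at 13.40 there and between 7.15 and 8.36 on the other 5 arrays. Saa2 (13.65), Orm3 (8.22) and Apcs (10.82) were also highest in that mouse, which held the highest of the 6 values for 20 of the 29 genes (69.0%) against 16.7% of all genes tested. The list median was -0.68 on its slide, 0.15 on slide 7 and 0.14 on slide 10, and without that mouse it was 0.11 with 20 genes higher. Arrays at such levels occurred elsewhere in the series, where Saa1 reached 15.67. The complement and coagulation list (8 of 37 higher, median -0.07) and the interferon and MHC list (8 of 32 higher, median -0.15) went with it: the mouse held the highest value for 18 of the 37 and 17 of the 32, and the medians on its slide were -0.28 and -0.35. Without it they stood at -0.02 and -0.08. C1ra, a complement protease, differed by -0.38 ± 0.23 with overlap, and Mbl1, a mannose-binding lectin, by -0.36 ± 0.26 without. The interferon and MHC members lower without overlap were Psmb8, in the mask, Psmb10, another immunoproteasome subunit, and B2m, the light chain of MHC class I. Psmb10 read 10.34, 10.52 and 10.45 in controls and 10.05, 10.00 and 10.14 with inulin (-0.38 ± 0.20), and B2m read 14.17, 14.03 and 14.17 and then 14.01, 13.76 and 13.82 (-0.26 ± 0.17). Stat2, a transcription factor of the interferon response that lies in the mask, differed by 0.58 ± 0.30 with overlap.

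**Figure D4:**
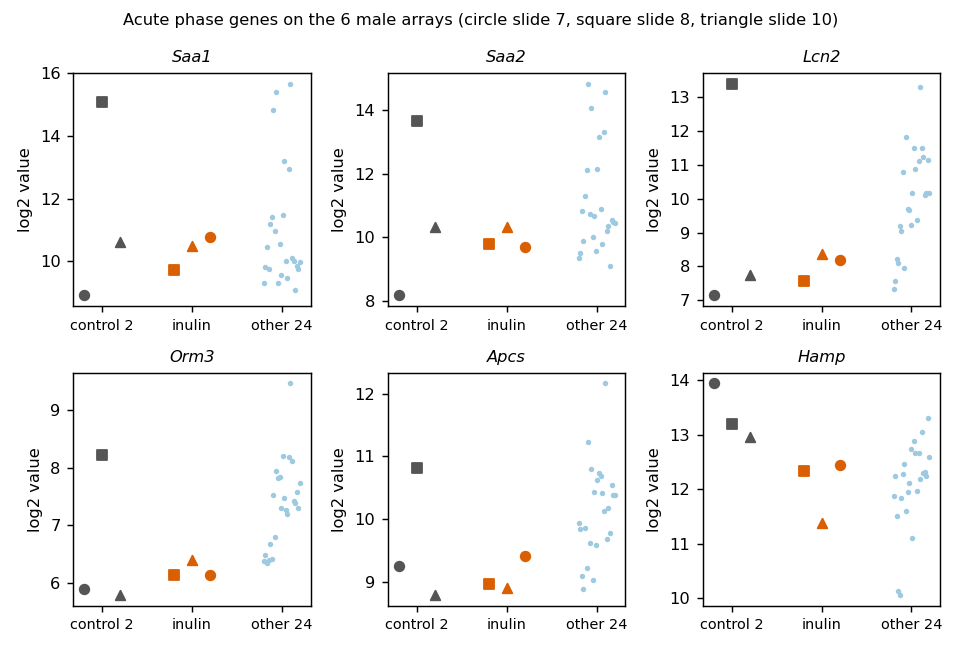
Log2 values of 6 acute phase genes on the 3 control 2 male arrays (grey), the 3 inulin male arrays (orange) and the other 24 arrays (light blue), with the slide of the male arrays by symbol. Control replicate 2 (grey square) stands far above the other 5 male arrays in each gene but Hamp, where all 3 controls lie above all 3 inulin arrays.

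Hamp differed from the rest of that list. It codes for hepcidin, the hormone that closes the iron exporter ferroportin, and read 13.94, 13.20 and 12.95 in controls and 12.44, 12.32 and 11.39 with inulin (-1.32 ± 0.46, unadjusted p = 0.00841). All controls lay above all inulin values, and the highest value was in control replicate 1, not 2. Control replicate 1 lay above the range of the other 24 arrays (10.05 to 13.30), and the other controls lay in its upper part. Cebpb, an activator of acute phase genes, and Il6ra, the interleukin-6 receptor, were the other non-overlapping members, with differences of -0.31 ± 0.23 and -0.45 ± 0.26. Cebpd, a relative of Cebpb, read 10.02, 11.20 and 11.17 in controls and 9.86, 10.24 and 10.08 with inulin (-0.74 ± 0.28), with overlap through control replicate 1. In the iron and heme list 13 of 24 genes were higher (median 0.03), among them Cpox, a late enzyme of heme synthesis (0.33 ± 0.14, no overlap), while Alas1, its first enzyme, was lower on both of its probes (-0.46 and -0.59, no overlap for the brighter).

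Heat shock chaperones and cochaperones were higher in 22 of 26 genes (median 0.14), with slide medians of -0.00, 0.14 and 0.21 on slides 7, 8 and 10. St13, a cochaperone of HSP70, read 9.70, 9.69 and 9.58 in controls and 10.25, 10.06 and 10.01 with inulin (0.45 ± 0.16), without overlap, and Fkbp4 and Hspa4 did not overlap either (0.32 ± 0.22 and 0.28 ± 0.19). The 2 other probes of Hspa4 differed by -0.14, in the mask, and -0.09. Hsf2, a heat shock transcription factor, was 0.44 ± 0.22 higher with overlap. Endoplasmic reticulum folding genes were higher in 20 of 27 (median 0.10), with Atf4, a transcription factor of the integrated stress response (0.50 ± 0.21), and Syvn1, a ubiquitin ligase of protein disposal (0.46 ± 0.23), without overlap, but their median was -0.10 on slide 10. In females the heat shock list was higher in 20 of 26 (median 0.22), and the endoplasmic reticulum list in 6 of 27 (median -0.14).

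The medians of the other gene lists ran from -0.16 (female-biased genes) to 0.08 (proteasome), and 0 of their genes were called. Cytochrome P450 genes were higher in 24 of 37 (median 0.05). Cyp2b10, a target of the receptor CAR, read 10.22, 10.66 and 9.88 in controls and 10.84, 10.79 and 11.20 with inulin (0.69 ± 0.30), without overlap, and Cyp2b9 differed by 0.51 ± 0.27 with overlap. Phase II and antioxidant genes were higher in 26 of 43 (median 0.04), where Gpx4, which reduces lipid peroxides, and Mt2, a metallothionein, differed by -0.27 ± 0.15 and -1.16 ± 0.68, both with overlap. Chaperonin and prefoldin genes were higher in 7 of 15 (median -0.01), though Ptges3 and Cdc37, cochaperones of HSP90, were higher without overlap by 0.36 ± 0.17 and 0.29 ± 0.21. Insulin and growth hormone signalling genes were higher in 11 of 20 (median 0.03), and Igfbp4, an IGF-binding protein, was lower without overlap (-0.45 ± 0.31).

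Proteasome genes were higher in 23 of 32 (median 0.08). Psmc4, an ATPase subunit, differed by 0.44 ± 0.20 with overlap, and Psmb2, a core subunit in the mask, by -1.19 ± 0.53. Respiratory chain genes were higher in 40 of 62 (median 0.05), with Ndufa6 of complex I, in the mask, at 1.25 ± 0.49. Cytosolic ribosomal protein genes were higher in 23 of 67 (median -0.05). Rps4x was lower without overlap (-0.25 ± 0.13), and Rps24, in the mask, read 12.84, 8.91 and 9.17 in controls and 12.38, 11.13 and 11.29 with inulin. Rps24 was thus low on slides 8 and 10 in both groups, and more so in the controls. Urea cycle and amino acid enzymes were higher in 15 of 32 (median -0.00). Control replicate 2 held the highest value for 14 of the 32 (43.8% against 16.7% of all genes), the slide medians were 0.11, -0.28 and 0.11, and without that mouse 23 were higher with a median of 0.10. Got1, the cytosolic aspartate aminotransferase, read 13.55, 14.29 and 13.43 in controls and 13.003, 12.84 and 13.05 with inulin (-0.80 ± 0.30), without overlap and highest in that mouse, and Tat, the tyrosine aminotransferase, differed by -0.44 ± 0.26 with overlap.

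Cell cycle genes were higher in 5 of 10 (median -0.01), with Pcna, the DNA polymerase clamp, lower without overlap (-0.30 ± 0.20) and the replication licensing gene Mcm3 at 0.15 ± 0.14. Cytokine and innate sensing genes were higher in 7 of 17 (median -0.02). Nlrp6, an inflammasome sensor, was higher without overlap (0.43 ± 0.21), and Il1b differed by 0.32 ± 0.25 with overlap. Male-biased genes were higher in 7 of 12 (median 0.02), with Cyp2d9 at 0.54 ± 0.34 and Cyp7b1 at -0.43 ± 0.32, and female-biased genes in 5 of 13 (median -0.16), with Trim24 at -0.38 ± 0.22, all with overlap.

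Markers of other cells that a piece of liver can hold gave 0 called genes, and fewer cells of a type cannot be told apart from less RNA per cell in such samples. Kupffer cell and macrophage markers were higher in 7 of 13 (median 0.06), endothelial in 8 of 11 (0.03), stellate and fibroblast in 4 of 11 (-0.08), neutrophil in 3 of 5 (0.03), and T and NK cell in 4 of 5 (0.01). The 7 erythroid markers had a mean log2 level of 10.98 to 12.03 on the inulin arrays and 11.27 to 11.58 on the control arrays, with slide medians of -0.31, -0.59 and 0.98. Inulin replicate 2, on slide 10, held the highest of the 6 values for 5 of the 7 erythroid, 3 of the 5 neutrophil, 3 of the 5 T and NK cell and both pancreatic acinar markers, against 14.5% of all genes, and its part in the other results was not tested apart from leaving it out. Pancreatic acinar markers gave 2 measured genes and the adipocyte and the B and plasma cell lists 1 each, while no cholangiocyte or muscle marker and no X or Y marker of sex was measured.

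The inulin difference was then set against that of the females. No gene differed between the sexes past an adjusted p of 0.05 (0 of 8996, 0%), with 302 at an unadjusted p under 0.05, and again 0 with slide as a fixed block (0%). Of the 10 genes with the lowest p, Nr1d1 was 0.54 ± 0.18 higher with inulin in males and differed by -0.54 ± 0.18 in females (difference 1.08 ± 0.25, adjusted p = 0.696). Trib3, a pseudokinase that binds AKT, stood at 0.55 ± 0.25 in males and -0.99 ± 0.25 in females, and Hhex, a liver homeobox factor, at -0.41 ± 0.25 and 0.99 ± 0.25. F3, Ccdc71l and Spindoc were higher in males and lower in females, and Phldb2 and Clec1b the reverse. Traf2 (negative in males and 0.98 ± 0.32 in females) and Rpap3 (-1.42 ± 0.31 in males and 0.21 ± 0.31 in females) lie in the mask. Leaving out control 2 replicate 1 of the males gave 1 called gene, and leaving out inulin replicate 3 gave 10. Females showed no called gene of their own (0 of 8996, 0%, 327 at an unadjusted p under 0.05).

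Against the G35 decoction, which carried the same amount of inulin within whole root, 4 of 8996 genes (0.0445%) differed in their response in males: Noct, Tmc7, C9orf72 and Pfkfb3. In each the inulin difference was lower than the G35 difference. Noct stood at 9.52, 8.54 and 8.95 in control 1 and at 9.59, 10.39 and 10.08 with G35, a difference of 1.02 ± 0.24 against -1.02 ± 0.24 for inulin (adjusted p = 0.0186 in limma). Both treated groups ended near each other, at means of 10.02 and 9.67, and the 2 water groups were apart, at 9.00 and 10.69. Pfkfb3 was 0.94 ± 0.26 higher with G35 (adjusted p = 0.0394 for the difference of -1.99 ± 0.37). Its 3 control 1 values, 7.71, 7.72 and 7.69, were nearly equal and its G35 values were 8.59, 8.75 and 8.60. Tmc7, a member of the transmembrane channel-like family, stood at 1.05 ± 0.21 with G35 and -0.68 ± 0.21 with inulin (adjusted p = 0.0186), where the inulin values were 7.17, 7.07 and 7.11 and those of control 2 were 7.61, 7.73 and 8.04. C9orf72, a gene of vesicle traffic and autophagy, had little inulin difference (-0.19 ± 0.15) beside one of 1.10 ± 0.15 with G35 (adjusted p = 0.0186). The 2 treatments share no control arrays but belong to experiments run at different times, so treatment and experiment cannot be told apart in this difference.

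**Figure D5:**
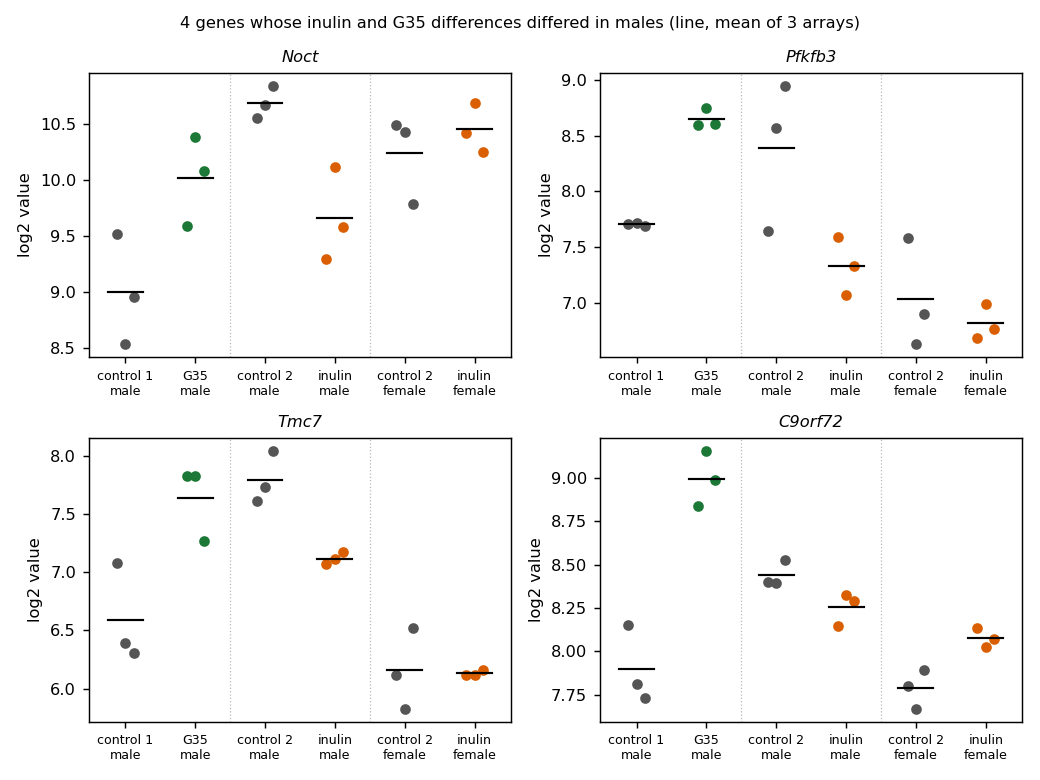
Log2 values of Noct, Pfkfb3, Tmc7 and C9orf72 in the males of both experiments and the females of the inulin experiment, 3 arrays a group, with the group mean as a line. G35 points lie above control 1 in each gene and inulin males below control 2 males, and the 2 male water groups do not overlap for Noct, Tmc7 and C9orf72.

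With slide as a fixed block 13 genes differed from G35 (0.145%), 12 lower and 1 higher. The higher one, Leap2, the liver peptide that blocks the ghrelin receptor, read 10.62, 9.09 and 9.17 in control 2 and 10.84, 10.64 and 10.56 with inulin (1.06 ± 0.34), where control replicate 1 overlapped with the inulin values, and it differed by -1.08 ± 0.34 with G35. Trp53inp1, a p53 target, was -0.55 ± 0.29 with inulin and 1.37 ± 0.29 with G35, and Foxo1 was among the lower ones too, at -0.55 ± 0.23 with inulin and 0.92 ± 0.23 with G35. Sco2, Ppp1r3c, Sgk2 and Hdhd3, with the next lowest p among the higher genes, were not called by either fit. The calls depended on single arrays: leaving out control 1 replicate 2 or 3, G35 replicate 2, control 2 replicate 2 or 3, or inulin replicate 1 left 0 called genes, leaving out G35 replicate 1 or inulin replicate 2 left 2, and G35 replicate 3 left 1. Leaving out control 2 replicate 1 gave 14 and inulin replicate 3 gave 13. With only the 12 arrays of these 4 groups in the fit 0 were called, with a lowest adjusted p of 0.0577.

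Pfkfb3 and Tmc7 are shown with the cyclic AMP response element, the letters bound by CREB, because both hold its core. TGACGT on both strands stood in 2 of the 5 windows of the 4 genes, against 11.8% of the windows of genes tested and 7.51% of all, and its full form TGACGTCA, which contains the core, in 1 of the 5 (Tmc7), against 3.08% and 1.79%. None was found in the windows of Noct and C9orf72. The motif was searched with the results known, and the 2 genes are shown for their matches. These shares are therefore no test, and a match is only a match of letters. The matches are in capitals in the 250 bases before the start of Pfkfb3 (chr2:11553930-11554179, minus strand) and Tmc7 (chr7:118584687-118584936, minus strand), from RefSeq on GRCm38.p6.
Pfkfb3: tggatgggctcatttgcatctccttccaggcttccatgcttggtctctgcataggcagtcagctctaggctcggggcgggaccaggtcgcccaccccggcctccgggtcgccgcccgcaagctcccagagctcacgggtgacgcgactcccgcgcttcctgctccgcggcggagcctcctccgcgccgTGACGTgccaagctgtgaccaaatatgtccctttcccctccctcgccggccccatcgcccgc
Tmc7: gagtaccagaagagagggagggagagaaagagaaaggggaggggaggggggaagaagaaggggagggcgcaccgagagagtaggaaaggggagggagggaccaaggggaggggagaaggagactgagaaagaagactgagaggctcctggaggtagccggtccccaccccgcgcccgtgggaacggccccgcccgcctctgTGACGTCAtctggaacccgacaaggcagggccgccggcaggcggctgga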

How the data were processed

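Liver RNA of 30 mice was measured on single-colour Agilent arrays. The submitters' processing notes name Agilent Feature Extraction. The deposited table holds intensities on a linear scale, from 39 to 65535 for 15505 features, whose array medians differ, so they were taken as not normalized between arrays. How the authors corrected background, and the software version, are not given in the sources used here. Of the features, 12544 had 1 gene symbol in the platform annotation and 2961 had none. The intensities were corrected with normexp (offset 50), quantile normalized and put on the log2 scale, and the brightest feature stood for each of 8996 genes, of which 1869 had several. The deposited values were fitted with limma 3.58.1 (R 4.3.3) in 1 fit of 30 arrays and 10 groups, with Benjamini-Hochberg adjustment over all genes and a threshold of 0.05. The fit was run on simulated data with independent errors. These held no slide effect, cluster on the array surface or outlying mouse, so the simulation did not test the fit for those. Alternatives were 4 other normalizations, a filter on the 25% dimmest genes, every probe, only the arrays compared, limma's trend and robust options, slide and replicate number as blocks, each array left out and, after seeing the data, the neighbourhood mask and each slide left out. Named genes were the 12 each way with the lowest p among non-overlapping genes, the 2 lowest p of each gene list, and 5 each way for the other comparisons. Others were named after their values were seen: further non-overlapping list members, the acute phase genes high in control replicate 2, Acss2, Idi1, Upp2 and Wdr13. Marker lists are given by counts. The members and the lists were chosen with earlier results of these data known. The animals were separate mice per the labels.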

Additional observations from a re-analysis of the deposited data

Results flagged for a closer look

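Against the G35 decoction, 4 genes had a difference between treatments that itself passed the adjusted threshold in males (limma, 3 mice a group). The difference of differences was -1.28 log2 for C9orf72, -2.04 for Noct, -1.72 for Tmc7 and -1.99 for Pfkfb3. In Noct, Tmc7 and C9orf72 the male water groups of the 2 experiments did not overlap. The part of the experiment's time in these values was not tested. The calls depended on single arrays: leaving out control 1 replicate 2 or 3, G35 replicate 2, control 2 replicate 2 or 3, or inulin replicate 1 left 0 called genes.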

How the results depend on the processing

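For inulin against control 2 in males, 0 genes were called under the other 4 normalizations, the filter on dim genes, every probe, the 6 arrays alone, slide as a fixed block, limma's trend and robust options, the mask, and the mask with slide as a fixed block. Slide as a random block gave 1, leaving out each array 0 to 15, the same with slide as a fixed block 0 to 58, and leaving out slide 7 gave 21. The difference between the sexes gave 0 throughout except 0 to 10 with single arrays left out. The difference from G35 gave 4 genes, 2 under 75th percentile scaling, 2 under median centring, 0 with only the arrays compared, 13 with slide as a fixed block, 9 as a random block and 0 to 14 with an array left out. The cause of these moves was not tested. Of 455 medians over 38 lists and their alternatives, 67 in 21 lists moved by more than the spread (13 under 75th percentile scaling, 9 under median centring, 43 with an array left out and 2 without the dimmest genes), and 90 in 28 lists changed sign. Among lists with no such change were cholesterol, which moved to 0.385 under 75th percentile scaling, heat shock and endoplasmic reticulum folding. The replicate block gave 0, 0 and 3 called genes. Its numbers were not taken as pairs, since deviations of same-numbered males correlated at -0.446, -0.0253 and -0.525, while those on one slide did so at 0.557, 0.235 and 0.393. Klf4 turned to 0.032 under 75th percentile scaling, and with the mask, alone or with slide as a block, the remaining probes of Rnf220 and Rps24 gave 0.15 and -0.42. With slide 8 left out, or either of its arrays left out with slide as a block, the differences turned to 0.88 for Saa1, 0.75 for Saa2, 0.83 for Lcn2, 0.42 for Orm3, 0.14 for Apcs, -0.12 for Mcm3 and -0.063 for Hdhd3. With single arrays left out they ran from -2.51 to 0.58 for Saa1, -2.06 to 0.68 for Saa2, -2.53 to 0.60 for Lcn2, -0.84 to 0.38 for Orm3, -0.94 to 0.073 for Apcs, -0.048 to 0.29 for Mcm3 and -0.049 to 0.22 for Hdhd3. Intensities carry no counts, and 3 arrays a group limit the precision. P-values rest on a spread estimated within all 10 groups, not on the 6 males alone. The main fit takes no account of slide or of position on the slide.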
